A study of Mus musculus with 2 samples.

Results

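KAT8 peaks at miRNA, snoRNA and snRNA genes were examined in mouse bone marrow-derived macrophages. Members were the peaks of each list that overlapped, by at least 1 bp, a window reaching 1000 bp to either side of a RefSeq gene of those biotypes (mm10). The R848 list had 300 such peaks of 44772, and the untreated list had 361 of 52001. They lay beside 516 of the 3572 annotated genes. Wild-type cells were treated with R848 (100 ng/ml, 2 h), which activates the endosomal Toll-like receptor TLR7, or left untreated, and each group had 1 CUT&Tag library. Bone marrow cells of both groups had been cultured with M-CSF (20 ng/ml), the macrophage growth factor. The sources used here do not give the strain, sex or age of the mice. CUT&Tag uses an antibody to direct a transposase to cut the DNA around a bound protein. With 1 library per group, none of the differences below has a replicate check or a p-value.

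KAT8 is a lysine acetyltransferase that acetylates histone H4 and works within the MSL and NSL complexes. The NSL complex is known for binding promoters of housekeeping genes. miRNAs are cut from hairpin transcripts and direct Argonaute proteins to messenger RNAs through a short seed near their 5′ end. snoRNAs guide the chemical modification of ribosomal RNA and are mostly released from the introns of host genes, whereas spliceosomal snRNAs are transcribed from promoters of their own. A miRNA or snoRNA inside a host gene can share that gene's promoter, so peaks were split by whether they also lay within 1000 bp of an end of a protein-coding gene. Either end of the gene counted, and lncRNA hosts did not, so this class is not a set of host promoters.

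The miRNAs with a peak and a known place in macrophage or general cell biology are shown first, with the seed (bases 2 to 8) in capitals, from RefSeq (GRCm38.p6). Mir132 and Mir212, Toll-like receptor-responsive miRNAs, lie under 1 peak in each list and share a seed.
miR-132-3p: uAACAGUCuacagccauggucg
miR-212-3p: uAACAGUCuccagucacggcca
miR-191-5p: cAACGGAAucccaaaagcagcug
miR-425-5p: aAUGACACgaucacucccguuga
miR-210-3p: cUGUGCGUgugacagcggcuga
let-7i-5p: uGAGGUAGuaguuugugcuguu
miR-484: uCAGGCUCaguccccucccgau
miR-142a-3p: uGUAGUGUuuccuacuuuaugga
The seed AACAGUC occurs in 2 miRNA genes of the table, and both had a peak. Of 158 miRNA genes with a peak, 135 had a mature sequence in the table, giving 214 mature miRNAs with 204 distinct seeds. Over the whole table, 1738 mature miRNAs have 1398 distinct seeds. A smaller set repeats fewer seeds, so these counts are not compared.

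Promoters that lay under member peaks of both lists are shown next. These peaks overlap the promoter window of a host or neighbouring gene as well as the small RNA gene's window. At Snhg1 the peaks of both lists end before the transcript start, and at the others they cover it. Each is the RefSeq window from 250 bases before to 50 after a transcript start, read along the gene's strand. Capitals mark matches, on either strand, to the GC box (GGGCGG) or the TATA motif (TATAAA). Marf1 (chr16:14159225-14159524, minus strand) neighbours Mir484 and is not its host. Sap18 (chr14:57797939-57798238, plus strand) spans Mir3077. Ndufaf3 (chr9:108567387-108567686, minus strand) lies upstream of Mir191 and Mir425 and is not their host. Gas5 (chr1:161034916-161035215, plus strand) and Snhg1 (chr19:8723237-8723536, plus strand) are noncoding hosts of several snoRNAs.
Marf1: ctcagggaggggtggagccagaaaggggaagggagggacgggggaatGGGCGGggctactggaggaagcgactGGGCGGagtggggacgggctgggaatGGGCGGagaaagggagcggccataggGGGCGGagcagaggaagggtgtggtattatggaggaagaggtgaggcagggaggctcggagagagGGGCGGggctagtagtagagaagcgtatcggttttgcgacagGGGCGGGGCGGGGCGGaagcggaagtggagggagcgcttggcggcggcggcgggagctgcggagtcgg
Sap18: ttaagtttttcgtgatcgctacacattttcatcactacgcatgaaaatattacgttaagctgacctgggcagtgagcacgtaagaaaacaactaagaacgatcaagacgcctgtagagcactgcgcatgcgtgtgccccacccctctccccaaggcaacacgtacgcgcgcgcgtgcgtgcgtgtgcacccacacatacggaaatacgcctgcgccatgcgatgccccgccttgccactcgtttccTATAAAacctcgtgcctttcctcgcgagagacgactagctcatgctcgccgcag
Ndufaf3: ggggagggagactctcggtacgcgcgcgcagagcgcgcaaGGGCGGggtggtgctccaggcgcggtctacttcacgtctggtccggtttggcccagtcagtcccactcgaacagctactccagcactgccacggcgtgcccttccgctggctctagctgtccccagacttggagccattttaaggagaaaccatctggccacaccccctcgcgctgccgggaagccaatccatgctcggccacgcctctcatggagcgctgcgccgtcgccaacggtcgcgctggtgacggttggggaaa
Gas5: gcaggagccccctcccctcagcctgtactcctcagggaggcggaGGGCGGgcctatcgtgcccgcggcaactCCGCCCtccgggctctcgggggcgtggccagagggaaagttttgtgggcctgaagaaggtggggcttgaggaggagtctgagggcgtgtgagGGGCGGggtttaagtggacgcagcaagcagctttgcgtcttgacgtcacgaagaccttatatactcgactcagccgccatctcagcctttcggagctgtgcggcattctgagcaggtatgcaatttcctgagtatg
Snhg1: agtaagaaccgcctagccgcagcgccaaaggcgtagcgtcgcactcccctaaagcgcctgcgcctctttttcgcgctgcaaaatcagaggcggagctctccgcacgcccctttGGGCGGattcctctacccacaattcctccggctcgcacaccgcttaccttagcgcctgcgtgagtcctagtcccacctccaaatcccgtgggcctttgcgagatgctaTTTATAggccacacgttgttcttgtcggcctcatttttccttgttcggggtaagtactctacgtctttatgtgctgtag
The Marf1 window held GC boxes and the Sap18 window held a TATA match with none. The remaining windows held at least 1 GC box, and that of Snhg1 a TATA match as well.

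Each peak carries a fold over the caller's background, a −log10 p and a −log10 q (the p-value adjusted over the list), all the authors' own values and used here to describe and rank peaks within their list. A fold given for both lists does not measure a change, because depth and background differ. The number of fragments at a peak's summit and its background were solved from the fold and the p-value. The lowest background was 2.62 fragments in the R848 library and 3.37 in the untreated library, so the R848 library was the shallower by this measure. The fewest fragments at any called summit were 7 (R848) and 8 (untreated). Of 10 macrophage marker genes, 6 had a gene-end peak in the R848 list and 5 in the untreated list, against 24.4% and 28.8% of protein-coding genes. Csf1r, Adgre1 and Itgam, 3 of the defining markers, had none in either list. Of 6 lymphoid markers, Cd3d had a peak in the R848 list and none had one in the untreated list, and the 4 stromal markers had none in either.

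Small RNA genes as a class had a peak about as often as other short genes, and the order of the biotypes was the same in both libraries. A peak lay within 1000 bp of 318 genes in the R848 list (8.90%, 95% exact binomial interval 7.99 to 9.88) and of 354 in the untreated list (9.91%, 8.95 to 10.9). Among 1808 annotated genes of other biotypes no longer than the longest member (332 bp), the shares were 9.29% and 9.40%. snoRNA genes stood highest, with 158 of 1340 in the R848 list (11.8%) and 184 in the untreated list (13.7%). miRNA genes had 106 of 1228 (8.63%) and 104 (8.47%), and snRNA genes had 54 of 1004 (5.38%) and 66 (6.57%). For each biotype the R848 and untreated intervals overlapped. Of 408 tRNA genes, which are of similar length, 76 had a peak in the R848 list and 61 in the untreated list, and single protein-coding gene ends had 13.0% and 15.5%. These intervals, and those below, cover counting error only, and neighbouring genes can share a peak: 27 R848 peaks and 19 untreated peaks lay beside several members, at most 6 and 4 genes.

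**Figure D1:**
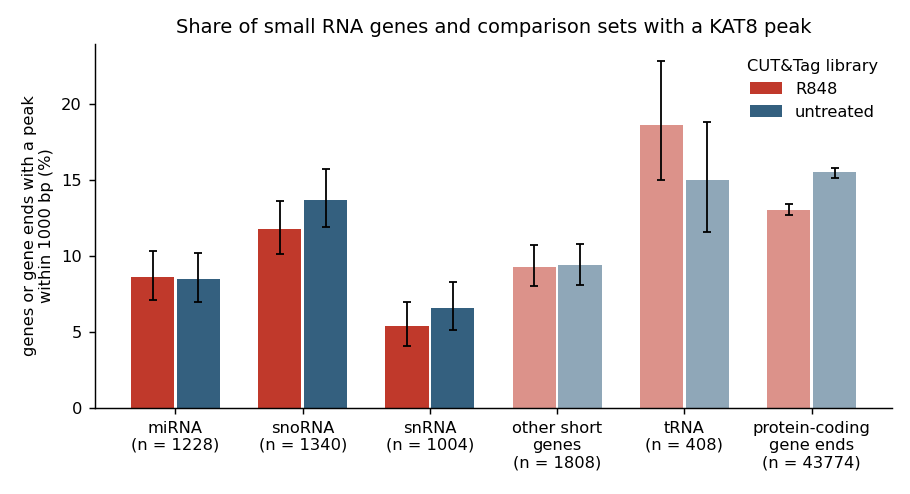
Percentage of genes (vertical axis) with a KAT8 peak within 1000 bp in the R848 library (left bar of each pair) and the untreated library (right bar), with 95% exact binomial intervals. snoRNA genes reached 11.8% and 13.7% and snRNA genes 5.38% and 6.57%, while other short genes had 9.29% and 9.40%.

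A peak was present in both lists at 156 genes (4.37%), in the R848 list only at 162 (4.54%) and in the untreated list only at 198 (5.54%). Other short genes had 4.48%, 4.81% and 4.92% in these classes, so the members' shares were near the background. With both lists taken at equal length the order of the single-list counts turned, with 168 genes in the R848 list only and 155 in the untreated list only. The 156 genes were 49.1% of those with an R848 peak and 44.1% of those with an untreated peak. At 139 of them the peaks of the lists overlapped, and at 17 they lay at different places in the window. A further 8 R848-only and 6 untreated-only genes had a peak that overlapped a peak of the other list just beyond the window.

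Member peaks near a protein-coding gene end were found in both lists more often than the rest. Of member peaks with such an end at 1000 bp or less, 56 of 75 in the R848 list (74.7%, 63.3 to 84.0) and 58 of 82 in the untreated list (70.7%, 59.6 to 80.3) overlapped a peak of the other list. Of the remaining member peaks, 83 of 225 (36.9%, 30.6 to 43.6) and 85 of 279 (30.5%, 25.1 to 36.2) did, near the 35.8% and 31.0% of all peaks. Protein-coding gene ends with a peak at large also had one in the other list often, in 67.8% of R848 cases and 57.2% of untreated cases. Near-end peaks made up 25.0% of R848 members (20.2 to 30.3) and 22.7% of untreated members (18.5 to 27.4), against 11.1% and 11.3% of all peaks. The median fold of near-end members was 3.59 in the R848 list and 3.43 in the untreated list, and that of the other members was 2.99 and 2.75. Over all members the medians were 3.04 and 2.75, the same as over all peaks. Sharing followed peak strength, as it did over the whole lists: of members with a −log10 p between 10 and 30, all 30 R848 peaks and 39 of 40 untreated peaks were shared, and of those up to 3, 6 of 49 and 5 of 43 were. A q-value of 0.05 or less was reached by 49.7% of R848 members and 45.4% of untreated members, against 41.1% and 36.3% of all peaks.

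Most snRNA genes with an Rnu symbol had a peak, while few predicted snRNA genes did. Of 15 Rnu genes, 12 had a peak in the R848 list and 10 in the untreated list, and those 10 were in both. The 10 include Rnu3a, the 4 Rnu3b genes and Rnu7, which are not genes of the spliceosome. The spliceosomal genes among them were Rnu1a1, Rnu2-10, Rnu5g and Rnu12. Among the 987 predicted snRNA genes (Gm and LOC symbols), 72 had a peak in either list (7.29%), 26 of them in both. Of other short genes, 14.2% had a peak in either list. The Rnu3 genes encode the U3 RNA, which works in ribosomal RNA processing and which the gene table classes as an snRNA. Rnu3b2 had a fold of 6.91 with 24 summit fragments in the R848 list, and 6.41 with 27 in the untreated list. Rnu3b4 had 6.63 with 23 and 5.04 with 21, Rnu3b3 had 5.84 with 22 and 5.26 with 22, and Rnu3b1 had 5.14 with 18 and 4.81 with 20. In the R848 list the summits lay 107 to 112 bp from all 4 Rnu3b genes, and in the untreated list 131 to 157 bp. These 4 genes lie inside Tex14 on chromosome 11 (87422867 to 87471582 with their neighbours) and belong to 1 gene family. Whether reads of 1 copy were placed on another was not tested. Rnu3a, on chromosome 10 beside the end of Gtf3c6, had a fold of 4.97 in the R848 list and 4.35 in the untreated list.

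The genes of the major spliceosome had lower folds than the Rnu3 genes. Rnu1a1, a gene of U1, which recognises the splice donor, had a fold of 3.59 in the R848 list and 3.43 in the untreated list. Rnu1b1, Rnu1b2 and Rnu1b6 on chromosome 3, also U1 genes, had no peak within the window in either list. Rnu5g, a gene of the U5 RNA, had 4.42 (−log10 q 4.04) in the R848 list and 2.52 (−log10 q 0.46) in the untreated list. Rnu2-10, a U2 gene, had 2.76 and 2.75. Rnu6, a U6 gene, had 2.83 in the R848 list only, and the nearest untreated peak lay 1899 bp away. Rnu12, of the minor spliceosome, had 3.32 in the R848 list and 3.20 in the untreated list, near Poldip3. Rnu11, its partner in recognising minor introns, had a peak only in the R848 list, with 8 fragments (−log10 q 0.23), and the nearest untreated peak was 4034 bp away. Rnu7, whose RNA processes histone messenger RNA ends, showed the opposite order, with 12 fragments (fold 2.75) in the R848 list and 24 (4.84) in the untreated list, at the end of Grcc10. The R848 peak at Rnu11 was close to the fewest fragments called, while that at Rnu6, with 15 fragments (−log10 q 1.44), was above the list's median of 10.

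Other small RNA genes transcribed from their own promoters were looked up whatever their values. Rmrp, the RNA of RNase MRP, had a fold of 3.32 in the R848 list, from a peak that overlaps the gene. Its untreated peak, of fold 2.75 (−log10 q 0.83), lay 317 bp from the gene and did not overlap the R848 peak. Rpph1, the RNA of RNase P, had no R848 peak in the window and a fold of 3.20 in the untreated list. Rn7sk, the inhibitor RNA of the elongation factor P-TEFb and an snRNA in the table, had no peak within 1000 bp in either list, the nearest lying 76144 bp (R848) and 4769 bp (untreated) away. Among predicted snRNA genes, Gm29163 had the highest folds, 13.1 with 65 fragments in the R848 list and 13.0 with 78 in the untreated list. The summits of these peaks lay inside Bckdhb, 972 bp (R848) and 1050 bp (untreated) from Gm29163. Gm25794, at the end of Bsg, had 9.15 with 42 and 4.84 with 23. Gm24019 (beside Med16), Gm24381 (Ctnnbip1), Gm24537 (Kmt5c) and the pair Gm24265 and Gm24407 (Sirt4), each near a protein-coding gene end, had folds of 3.85 to 4.97 in the R848 list and 4.58 to 5.95 in the untreated list. Away from gene ends, Gm23205, Gm23444 and Gm25313 had 3.81 to 4.14 and 3.89 to 4.35. The predicted gene Gm22513 had peaks in both lists at different places.

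snRNA genes with a peak in 1 list only had folds of at most 5.26. In the R848 list they were led by LOC115488077 (4.52), Gm22221 (4.14), Gm25939 (3.87), Gm25099 (3.72) and LOC115487916 (3.59). In the untreated list Gm25323, beside Thrap3, led with 5.26, but its peak lay 955 bp from the gene and an overlapping R848 peak of fold 4.97 lay 1183 bp away, outside the window. Gm25124 (3.89), Gm23851, Gm24043 and Gm24968 (3.66 each) followed. Gm22997 (3.32) and LOC115486844 (2.49) completed those named for the R848 list, and Gm22845 (3.43), Gm22063 and Gm24182 (2.52 each) those for the untreated list. Among all snRNA genes with a peak in 1 list, only Gm25323 had its peak overlapped by the other list.

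**Figure D2:**
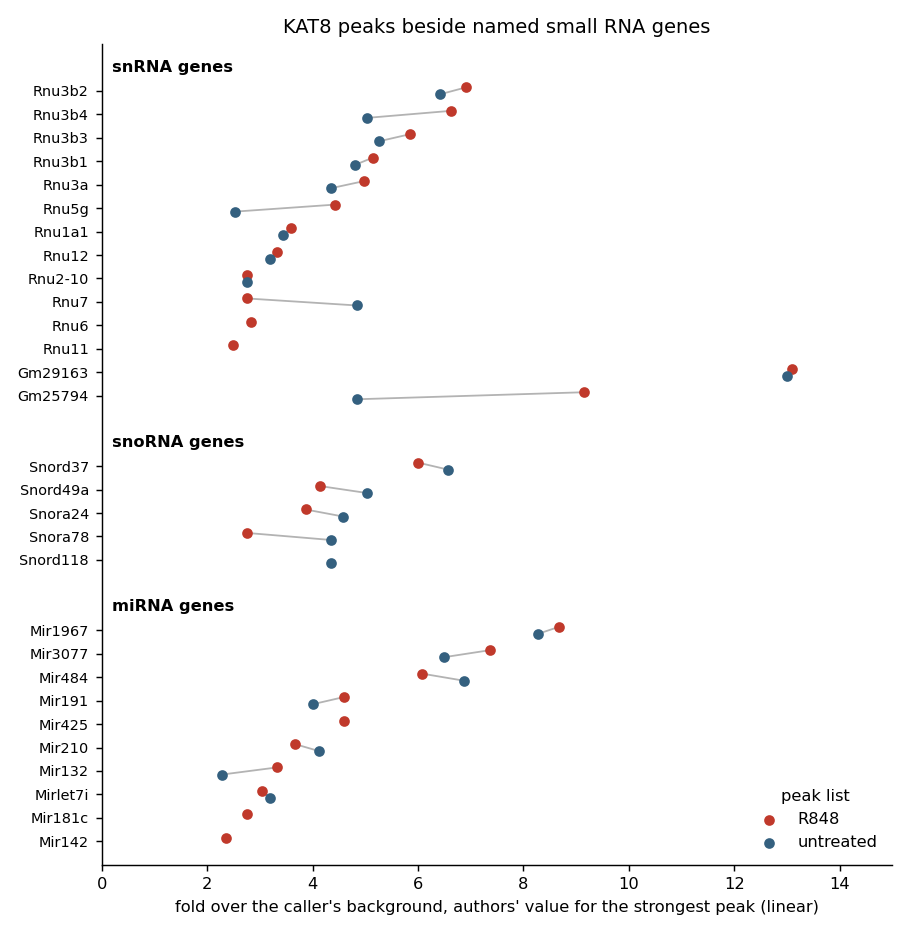
Fold over the caller's background (horizontal axis, the authors' value for the strongest peak within 1000 bp) for named snRNA, snoRNA and miRNA genes, in the R848 list (red, upper point) and the untreated list (blue, lower point). A missing point means no peak of that list within 1000 bp, as for Rnu6, Rnu11, Mir425, Mir181c and Mir142 (R848 only) and Snord118 (untreated only). Untreated peaks lie just beyond the window at Mir425 (1068 bp) and Mir142 (1179 bp). The Rnu3b genes sit between 4.81 and 6.91 in both lists.

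For snoRNA genes the most fragments lay in 3 gene arrays inside the noncoding host Snhg14 on chromosome 7, the imprinted region whose human counterpart is deleted in Prader-Willi syndrome. The middle array (59673461 to 59807088) has 51 snoRNA genes, of which 20 had a peak in both lists, 2 in the R848 list only and 4 in the untreated list only. Of its peaks, 23 of 25 in the R848 list and 23 of 28 in the untreated list overlapped a peak of the other list. The array before it (59347173 to 59619095), with 135 genes, had 11 R848 peaks and 12 untreated peaks, and 1 in each list was shared. The array after it (59859214 to 59904848), with 19 genes that include the Snord116l genes, had 8 of 15 R848 peaks and 6 of 13 untreated peaks shared. Snord116l8 had a fold of 4.41 with 41 fragments in the R848 list and 3.0 with 36 in the untreated list, and Snord116l2 had a peak only in the untreated list (3.93, 43 fragments).

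The background beside these peaks was raised as well. Its median was 10.6 fragments in the R848 library and 12.8 in the untreated library for peaks of the middle array, and 3.28 and 4.57 for peaks of the first array. Median summit fragments were 43 and 54 in the middle array and 11 and 13.5 in the first, so the arrays differed in depth more than in median fold (3.72 and 3.14 against 2.83 and 2.74). The highest folds of the middle array were at Gm25157, with 7.14 and 66 fragments in the R848 list, and 7.37 and 83 in the untreated list. Gm25350 had 7.14 with 82 and 6.56 with 87. Gm23446 had the most fragments among the array genes of highest fold, 126 (R848) and 136 (untreated). Gm23953, Gm23313, Gm22046 and Gm23265 had folds of 4.63 to 5.65 in the R848 list and 4.62 to 4.86 in the untreated list. The genes of an array are tandem copies, so a peak cannot be assigned to 1 copy with certainty, and whether read placement on repeated sequence moved with these values was not tested. With the 3 arrays left out, 208 of 1136 snoRNA genes (18.3%) had a peak in either list, against 66 of 204 (32.4%) within them. The either-list share of other short genes was 14.2%.

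**Figure D3:**
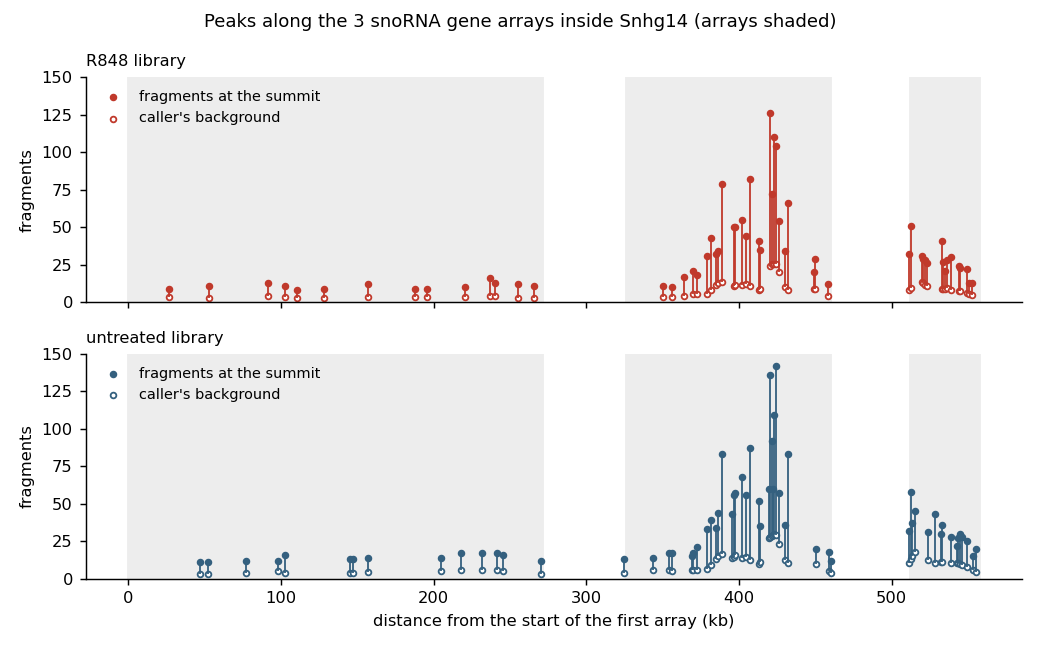
Peaks along the 3 snoRNA gene arrays inside Snhg14, in the R848 library (top) and the untreated library (bottom). The horizontal axis is the distance from the start of the first array (kb) and the vertical axis the number of fragments, with filled points for the summit and open points for the caller's background. The tallest summits, 126 (R848) and 142 (untreated) fragments, lie in the middle array, where the background is raised too.

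Outside the arrays, peaks lay near snoRNA genes of known host genes. Snord37, a C/D box snoRNA inside Eef2, the gene of an elongation factor of translation, had a fold of 6.0 in the R848 list and 6.57 in the untreated list. The summits lay 227 and 819 bp from the gene. These strongest peaks of the 2 lists lay at different places and did not overlap each other, though each overlapped some peak of the other list. Gm26306, beside Slc37a4, had 5.67 and 7.32. LOC115486178, inside Zfas1 and near Znfx1, had 7.57 and 5.04. Snord49a and Snord49b, which share a peak and the noncoding host 2410006H16Rik, had 4.14 and 5.04. The predicted snoRNA genes LOC115487643, LOC115487678 and LOC115487638 share a peak that overlaps the Gas5 promoter shown above. It had 11 fragments (3.32) in the R848 list and 25 (5.95) in the untreated list. In both lists this peak also overlaps the promoter of the protein-coding gene Zbtb37 on the opposite strand. Its R848 summit lies outside the Gas5 window shown, so the peak cannot be assigned to Gas5 alone. LOC115489078 and LOC115489084, beside the Snhg1 promoter, had 4.42 and 3.89, from a peak that also lies near an end of the protein-coding gene Slc3a2. Snora24 (host Snhg8) had 3.87 and 4.58, and Snora26 (host Dancr) had 3.59 and 3.20. Snora78 and Snora64 share a peak between Snhg9 and Rps2, with 9 fragments (2.76) and 18 (4.35).

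Further snoRNA genes with a peak are given with the protein-coding gene they lie in or beside. Snora3 (Rpl27a) had a fold of 3.59 in the R848 list and 3.43 in the untreated list, and Snord68 (Rpl13) had 3.04 and 3.66. Snord110, inside Nop56, the gene of a core protein of C/D box particles, had 3.87 and 2.75. Gm23969, beside Rpl7a and Med22, had 4.14 and 3.43, and LOC115489587 fell within the window of the wider R848 peak only. LOC115488833, near Rab26 and Traf7, had 2.76 and 4.12. A peak in the window came from the R848 list alone at Gm24505 (3.87), LOC115490074 (Rps20, 3.59), Snord42b (Rpl23a, 3.19), LOC115486841 (3.17) and, away from gene ends, Gm22417 (3.72), Gm23432 and LOC115487899 (3.59 each), Gm25017 (3.42) and Gm22934 (3.4). In the untreated list only were Snord118, the U8 snoRNA gene beside Tmem107 (4.35, 18 fragments), LOC115487513 (Rps12, 3.20), Snord14a (Rps13) and Snord15a (Rps3, 2.75 each) and Snord65 (2.52). Away from gene ends these were Snord116l2 (3.93), Gm25614 (3.89), Snord116l11 (3.67), LOC115490474 (3.66) and Gm22777 (3.43). The R848 peak nearest to Snord118 lay 2386 bp away. The R848 peak at LOC115486841, beside 2410002F23Rik, overlapped an untreated peak beyond the window, so this gene counted as R848 only through the 1000 bp edge.

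Because snoRNAs inside introns are made from the host's transcript, the promoters of their hosts were read as well, as a 300-base RefSeq window. Here and for the miRNA and snRNA hosts below, a host is any protein-coding or lncRNA gene that spans the small RNA gene. Strand and introns were not checked, so genes on the opposite strand can be counted. Rps2 and Snhg9, on opposite strands, both count as hosts of Snora78. Of 74 host genes of Snord or Snora genes with a promoter in the table, 30 had a promoter peak in the R848 list (40.5%, 29.3 to 52.6) and 42 in the untreated list (56.8%, 44.7 to 68.2). Of all 17492 protein-coding genes with a promoter in the table, 19.5% and 23.3% had one, and of 9533 lncRNA genes 5.15% and 5.99%. Both lists had a peak at 28 of these hosts (37.8%, against 14.8% of protein-coding genes), the R848 list only at 2 (2.70%, against 4.73%) and the untreated list only at 14 (18.9%, against 8.50%). Hosts of the other snoRNA genes had 23.2% and 26.5%. A host can hold a promoter peak with no peak at its snoRNA. A peak of either list lay within 1000 bp of 6 of 39 Snora genes (15.4%) and 30 of 93 Snord genes (32.3%), against 14.2% of other short genes. The Snord count includes the tandem Snord116l genes of the last chromosome 7 array, where 13 of 19 genes had a peak in either list. The Snord share is thus raised by that array and does not describe C/D box genes in general.

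Among hosts of Snord or Snora genes, the promoters that led by the lower of their R848 and untreated folds were those of Tpt1 (Snora31), with 7.46 in the R848 list and 7.5 in the untreated list, and Eif5 (Snora28), a translation initiation factor gene, with 6.88 and 5.72. Srcap (Snora30), which encodes a chromatin remodeller, had 5.44 and 7.21, and Zfas1 (Snord12) had 7.57 and 5.04. Gnl3, a nucleolar GTPase gene that holds Snord69 and Snord19, had 5.25 and 4.81. Ncl, the nucleolin gene that holds Snora75 and Snord82, had 4.70 with 16 fragments and 7.78 with 33. Rpl13a, with Snord35a, Snord34 and Snord33, had 4.19 and 5.04. Kansl2, a subunit gene of the NSL complex itself that holds Snora34 and Snora2b, had 3.59 and 6.18 and was not among these leaders. By the lower fold it stood below 2410006H16Rik (4.14 and 5.04), Ccar1 (3.87 and 5.49), Snhg8 (3.87 and 4.58) and Chd8 (4.14 and 3.66). The 2 hosts with an R848 promoter peak only were Rabggtb (2.76) and Rpl23 (3.04). The highest folds among those with an untreated promoter peak only were at 2700038G22Rik (4.35), Wdr43, of the nucleolus (3.89), and Rpl13 and Snx5 (3.66 each), none of them above 18 fragments. Rpl13 had an R848 peak within 1000 bp of its end that did not reach the promoter window.

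Of 52 miRNA genes with a peak in both lists, most had a peak near the end of a host or neighbouring protein-coding gene. Of miRNA genes with any peak near a protein-coding gene end, 34 had a peak in both lists, 9 in the R848 list only and 12 in the untreated list only. Of those away from gene ends the counts were 18, 45 and 40. In the near-end class Mir1967, inside Urb2 and near the end of Taf5l, had a fold of 8.68 in the R848 list and 8.28 in the untreated list. Mir3077 (Sap18, a corepressor subunit gene) had 7.36 and 6.49, Mir484 (Marf1) had 6.08 and 6.87, and Mir8102 (Cwc25 and Pip4k2b) had 5.90 and 4.58. Mir1938 (Ifrd1) had 5.80 with 20 fragments and 7.32 with 31, and Mir7009 (Anxa5, the annexin A5 gene) had 4.97 with 17 and 7.32 with 31. Mir707 (Akt1s1 and Tbc1d17) had 4.98 and 5.44, and Mir8112 (Krcc1) had 4.97 and 5.49. At each of these 8 genes the peaks of both lists overlapped.

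Mir191 and Mir425 form a cluster inside Dalrd3, downstream of the Ndufaf3 promoter printed above, and share its peak (chr9:108567297-108567900 in the R848 list, chr9:108567397-108567709 in the untreated list). The R848 peak had 19 fragments (fold 4.59) and the untreated peak a fold of 4.01. Mir425 counted as R848 only because the R848 peak ended 877 bp from it and the untreated peak 1068 bp from it, on either side of the 1000 bp edge. Mir92b, of the seed family of the miR-17-92 cluster, had a peak only in the R848 list (3.16, near Thbs3), as had Gm51271 and Mir695 (3.04 each) and Gm51264 (2.76). In the untreated list only were Mir762 (Bcl7c, 4.12), Mir688 (3.66), Mir6924 (3.26), Gm38670 and Mir7075 (Terf2, 3.20 each). None of these 9 peaks of 1 list exceeded 17 fragments.

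Away from protein-coding gene ends, 2 miRNA genes, Mir6236 and Mir101c, had far more fragments than the other members named. Mir6236, inside the lncRNA gene Gm39429, had a fold of 35.3 with 360 fragments in the R848 list and 36.2 with 425 in the untreated list. Mir101c, on chromosome 9 (3038669 to 3038743), had a fold of 5.30 in both, with 1549 fragments over a background of 292 in the R848 library and 1740 over 327 in the untreated library. The median over all member peaks was 11 and 12 fragments, and peaks were not filtered here for repeated sequence, so these folds do not rank the genes as KAT8 targets. Mir1893 (inside Epc1, an acetyltransferase subunit gene) had 6.04 and 7.91, Mir7655 (Mllt10) had 4.70 and 5.95, and Mir7671 had 5.21 and 4.35. Mir210, the hypoxia-induced miRNA, had 3.66 with 13 fragments in the R848 list and 4.12 with 17 in the untreated list, and its summits lay 433 and 503 bp upstream of the hairpin. Mirlet7i, a gene of the let-7 family, had 3.04 with 10 and 3.20 with 13, with summits 287 and 196 bp upstream. Mir7240 (inside Mast3) had the same folds as Mirlet7i.

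Single-list miRNA genes away from gene ends had 11 to 15 fragments at those named. In the R848 list they were Mir297-1 (4.42), Mir713 (3.59), Mir7676-1 (inside Csf2rb2, 3.39), Mir7215 and Mir8117 (3.32 each). In the untreated list they were Mir1936 (3.26), Mir673 (inside Rtl1, 3.20), Mir6987 (3.08), Mir702 (2.99) and Mir5124b (2.98), and the Mir5124b peak overlapped an R848 peak beyond the window. The Sfmbt2 cluster of Mir466, Mir467 and Mir669 genes on chromosome 2 (10466663 to 10518279) has 72 miRNA genes, and none had a peak in both lists. There, 14 counted as R848 only through 4 peaks of folds 2.21 to 2.99, and 3 as untreated only through 1 peak of 2.37. None of these 5 peaks reached a q-value of 0.05, and read placement among the genes of the cluster was not tested.

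**Figure D4:**
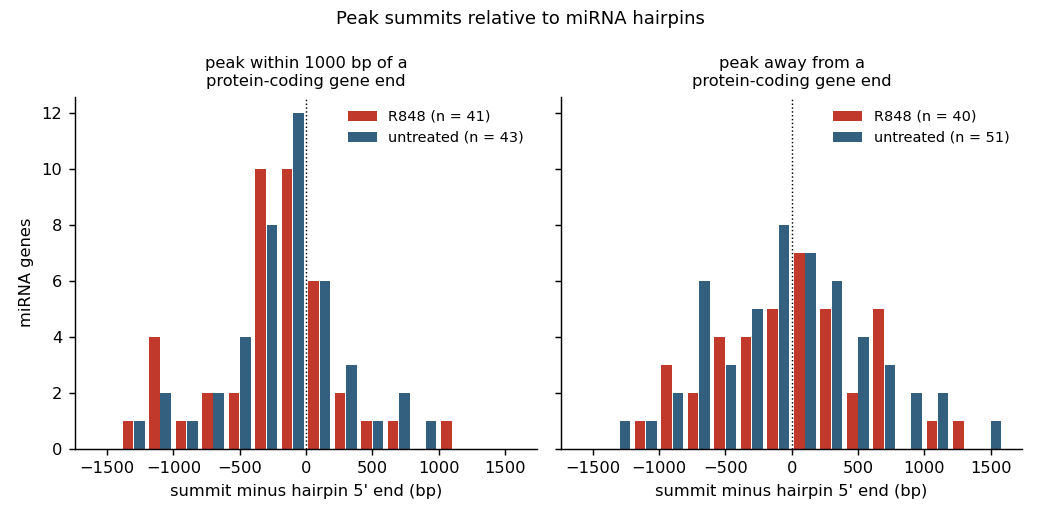
Distance of the strongest peak's summit from the 5′ end of the miRNA hairpin (horizontal axis, bp, negative values upstream) against the number of miRNA genes (vertical axis). The left panel has genes with any peak, of either list, at 1000 bp or less from the end of a protein-coding gene. The right panel has the other genes, and R848 is red and untreated blue. In the left panel 30 of 41 R848 summits and 30 of 43 untreated summits are upstream, and in the right panel 19 of 40 and 26 of 51.

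Summits were upstream of the hairpin more often at miRNA genes of the near-end class. A gene was in that class if any peak in its window, of either list, was near a protein-coding gene end. In that class 30 of 41 R848 summits (73.2%, 57.1 to 85.8) and 30 of 43 untreated summits (69.8%, 53.9 to 82.8) were upstream of the hairpin's 5′ end, with medians of −197 and −140 bp. Among the others 19 of 40 (47.5%, 31.5 to 63.9) and 26 of 51 (51.0%, 36.6 to 65.2) were, with medians of 90 and −14 bp. Strand was taken from the RefSeq hairpins, and genes with no hairpin entry were not placed. The intervals of the classes overlap in both lists.

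The list of miRNAs known from macrophages and Toll-like receptor signalling had 46 annotated genes. The R848 list placed a peak at 4 of them and the untreated list at 3, and 3 were in both. These counts are near the shares of all miRNA genes, 8.63% and 8.47%. Mir132 and Mir212 share a peak (chr11:75173049-75173847 in the R848 list) with 11 fragments and a fold of 3.32 (−log10 q 1.51). The untreated peak there (chr11:75173324-75173773) had 9 fragments and a fold of 2.29 (−log10 q 0.16). The R848 peak was just above its list's median of 10 fragments and the untreated peak below its list's median of 12, and 2 libraries cannot say whether they differ. Mir142, a haematopoietic miRNA gene, had an R848 peak of fold 2.36 (−log10 q 0.58), while the nearest untreated peak, of fold 3.61, lay 1179 bp away. Mir210 was the other gene in both lists.

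Mir155, Mir146 and Mir147, induced by Toll-like receptor signals, Mir21a, and Mir223, a miRNA of myeloid cells, had no peak within 1000 bp in either list. Mir21a lay just outside the rule, with peaks at 1112 bp (R848, fold 2.84) and 1199 bp (untreated, 2.62). The nearest peaks to Mir155 were 17517 bp (R848) and 5227 bp (untreated) away, and those nearest to Mir146 were 87190 and 31119 bp away. Mir22 also had none in its window, but the promoter of its host Mir22hg, 1858 and 1906 bp from the hairpin, had 33 fragments (6.03) in the R848 list and 45 (7.90) in the untreated list. Of the 26 hosts of listed miRNAs with a promoter in the table, 8 had a promoter peak in the R848 list and 10 in the untreated list. These counts are near the shares of hosts of all miRNA genes, 28.9% and 35.2%. Of all genes in the table, 14.5% and 17.2% had such a peak. The listed hosts with a promoter peak included Rcl1 (Mir101b, 5.76 and 5.49) and Srebf2, the sterol regulator gene that holds Mir33 (4.42 and 5.26). Mcm7, with Mir106b, Mir93 and Mir25, had 3.04 and 3.66. The promoters of Mir155hg, Mir17hg and Vmp1, the hosts of Mir155, Mir92-1 and Mir21a, had no peak in either list.

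Other miRNA families were short lists, read beside the 8.63% (R848) and 8.47% (untreated) of all miRNA genes with a peak. None of the 15 genes of the miR-17-92 clusters, 7 of the miR-15/16 family or 6 of the miR-30 family had a peak within 1000 bp in either list. The let-7 family had Mirlet7i alone, of 12, in both lists, and the miR-181 family had Mir181c, of 6, in the R848 list (2.76, −log10 q 0.58). Hosts of miRNA genes as a whole had a promoter peak in 183 of 633 cases in the R848 list (28.9%) and 223 in the untreated list (35.2%), 154 of them in both. The strongest of the host promoters included Rnf130 (Mir340), with 11.7 in each list, and Sptan1 (Mir6997), with 13.7 and 9.74. Hosts of snRNA genes, at 19.7% and 23.7%, were close to the protein-coding background of 19.5% and 23.3%.

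Promoters under member peaks had a median GC content like that of promoters under any KAT8 peak. Their shares with a GC box and a TATA match were higher, though this difference was not tested. Of member peaks near a protein-coding gene end, 62.7% in the R848 list and 67.1% in the untreated list overlapped a 300-base RefSeq promoter, against 57.2% and 57.1% of all near-end peaks. Of the other members 4.00% and 4.66% did. The GC box (GGGCGG, either strand) occurred in 94 of 108 promoters under a member peak (87.0%, 79.2 to 92.7), against 74.4% of 6329 promoters under any peak and 35.6% of all 32817 in the table. The Ets motif (CCGGAAG) occurred in 19.4%, 18.5% and 8.86%, and the NF-Y motif (CCAATCA) in 12.0%, 12.8% and 7.80%. TATAAA was in 13.0% (7.27 to 20.8), 5.06% and 13.6%. The octamer ATGCAAAT, known from the distal element of snRNA promoters, was in 2.78%, 1.33% and 1.74%, and the NRF1 motif in 1.85%, 2.39% and 0.966%. The table holds promoters of protein-coding and lncRNA genes, so the snRNA genes' own promoters were not read, and a motif match is a description of the letters and not of a bound factor. Median GC content was 64.5% in promoters under member peaks, 64.3% under any peak and 52.7% over the table. The 108 windows are part of the 6329, and some of them overlap, as at alternative starts of Elavl2 and Terf2. The intervals take the windows as independent, so they are too narrow.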

How the data were processed

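KAT8 CUT&Tag was carried out on R848-treated and untreated macrophages, with 1 library per group, and each library's peak list was called separately, per the labels and the deposited lists. The authors' deposited columns give, per peak, the fold over background (a ratio), −log10 p-value, −log10 q-value, a score (10 times the −log10 p) and the summit offset. No peak in either list had a −log10 p under 2.01. The submitters' processing notes name MACS2 2.2.7.1, Bowtie 0.12.8, DiffBind and the mm10 build, without roles. The sources used here do not give aligner settings, duplicate and multimapping handling or any control library, and no read counts were used. Summit fragments were solved jointly from the p-value (a Poisson tail) and the fold, read as (fragments + 1) / (background + 1), with whole fragments matching within 0.05 for all peaks.

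Genes and sequences came from RefSeq tables built on GRCm38.p6 (mm10). Coordinates are 1-based. Peaks were joined to genes with Python 3.11.15, numpy 2.4.6 and pandas 2.3.3, and the joins and the solving step were tested on simulated data against bedtools 2.31.1. Intervals are 95% exact (Clopper-Pearson) binomial intervals from scipy 1.17.1. Genes named are, per biotype and class of peak, up to 8 with peaks in both lists by the lower of their folds, up to 5 per list with a peak in that list only by fold, with genes sharing a peak counted once, and every member of the miRNA lists with a peak. Mir155, Mir146, Mir21a, Mir223, Mir132, Mir212, Mir147, Mir142, Mir22, Rnu7, Rnu11, Rnu12, Rmrp, Rpph1 and Rn7sk are named whatever their values. All Rnu genes, host genes and cluster members beyond this rule were chosen after their values were seen. The members and lists were chosen with earlier results of these data known.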

Additional observations from a re-analysis of the deposited data

How the results depend on the processing

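With 1 library per group, counts are limited by the calling threshold and by depth, which differs between the libraries, and no paired analysis was possible because each group has 1 library. Of 77 recomputed values, 38 stayed within 1.5 times the count or within the interval of the share, and 39 did not.

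Member peaks numbered 149 (R848) and 164 (untreated) with a q-value of 0.05 or less, 48 and 58 with a −log10 q of at least 5, 547 and 664 with a window of 3000 bp, and 78 and 85 over the gene body alone. With a window of 500 bp there were 204 and 234. Genes with a peak in both lists numbered 91, 38, 373 and 40 under the first 4 of these settings. R848-only genes numbered 65, 8, 285 and 39, and 107 with 500 bp, and untreated-only genes 73, 23, 345 and 50, and 124 with 500 bp. At a −log10 q of at least 5 the R848-only and untreated-only counts thus differed by more than 1.5 times, while in the main setting and at a q-value of 0.05 they did not.

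The share of member peaks near a protein-coding gene end was 32.9% (R848) and 34.8% (untreated) at a q-value of 0.05, 33.3% and 41.4% at a −log10 q of 5, and 33.7% and 29.4% with ends widened to 3000 bp. Over the gene body it was 26.9% and 34.1%. The share overlapping the other list was 60.4% and 54.9% at a q-value of 0.05, 83.3% and 70.7% at a −log10 q of 5, 57.7% and 58.8% over the gene body, and 34.7% and 29.1% where 50% of each peak had to overlap. With summits within 250 bp it was 42.0% and 34.1%. Lists of equal length, merged loci and, chosen after the data were seen, leaving out the chromosome 7 arrays or counting overlap beyond the window left every value within these limits, although lists of equal length turned the order of the single-list counts (168 R848 only, 155 untreated only).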
